A study of Mus musculus with 8 samples.

Results

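The 9 genes described here, *Rbfox1*, *Rbfox2*, *Rbm20*, *Rbm24*, *Celf1*, *Celf2*, *Mbnl1*, *Mbnl2* and *Qk*, encode RNA-binding proteins that set alternative splicing in striated muscle. They were chosen by name, and each H3K27Ac peak was given to the gene with the nearest curated RefSeq transcription start to its centre. This gave 121 of 45980 peaks, and each of the 9 genes had at least 2. H3K27Ac ChIP-Seq was done on ventricles of P7 mice, from 2 *Arid1a* f/f control hearts and 2 *aMHC-Cre;Arid1a* f/f (*Arid1a cKO*) hearts, with an input library from each heart (8 libraries). Both groups carried the floxed *Arid1a* alleles and were 7 days old. Only the cKO group carried the Cre transgene, which is driven by the αMHC promoter and is therefore active in cardiomyocytes, while the chromatin came from whole ventricles with all their cell types. *Arid1a* encodes a DNA-binding protein of the SWI/SNF complexes, which move and evict nucleosomes.

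The deposited values are the authors' means for each group, on the scale of log2 normalized reads per peak, and hold no value for a single heart. No replicate error, interval or test could therefore be computed, the sequencing depth is unknown, and each difference below is a difference between 2 group means. A peak was counted as lower or higher where the *Arid1a cKO* level differed from the control level by at least 1 on the log2 scale, which is 2-fold. In bulk ventricles, fewer cells of a type and less mark per cell cannot be told apart.

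Alternative splicing lets 1 gene give different proteins, and in the heart it switches around birth from fetal to adult isoforms of sarcomere, calcium handling and ion channel genes. The RBFOX, RBM20, RBM24, CELF, MBNL and Quaking proteins bind short motifs in introns and exons and favour or block the use of a nearby exon. CELF and MBNL proteins act against each other on many exons of this switch. H3K27Ac, acetylation of lysine 27 of histone H3, marks active promoters and enhancers.

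The clearest contrast among the 9 genes was between the internal start of *Rbfox1* and the starts of the other genes. For this reason the 250 bases upstream of 4 starts are shown, 5′ to 3′ on the strand of the gene, from RefSeq build GRCm38.p6 (mm10). The first is the internal start of *Rbfox1* (chr16:7069585-7069834, plus strand), which lay in a peak with less H3K27Ac in *Arid1a cKO* hearts. The second is the most upstream *Rbfox1* start (chr16:5884543-5884792, plus strand), which lay in no peak. *Mbnl1* (chr3:60500929-60501178, plus strand) and *Qk* (chr17:10319362-10319611, minus strand) had strong start peaks that differed little between the groups. No match to the motifs searched was found in these 4 windows, so all letters are in lower case.
Rbfox1 internal start: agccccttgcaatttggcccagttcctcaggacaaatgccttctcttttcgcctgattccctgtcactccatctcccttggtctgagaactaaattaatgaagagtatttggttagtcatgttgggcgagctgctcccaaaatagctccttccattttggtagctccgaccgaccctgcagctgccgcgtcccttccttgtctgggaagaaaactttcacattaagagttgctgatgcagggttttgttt
Rbfox1 most upstream start: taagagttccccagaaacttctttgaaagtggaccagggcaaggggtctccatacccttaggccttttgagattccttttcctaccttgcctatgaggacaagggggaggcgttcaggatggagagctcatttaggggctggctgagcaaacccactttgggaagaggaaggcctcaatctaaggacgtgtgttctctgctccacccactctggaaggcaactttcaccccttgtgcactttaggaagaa
Mbnl1 start: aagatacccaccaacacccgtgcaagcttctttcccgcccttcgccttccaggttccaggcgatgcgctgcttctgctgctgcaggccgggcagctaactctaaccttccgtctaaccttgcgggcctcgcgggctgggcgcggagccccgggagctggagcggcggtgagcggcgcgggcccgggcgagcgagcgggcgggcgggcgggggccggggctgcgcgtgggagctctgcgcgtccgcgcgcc
Qk start: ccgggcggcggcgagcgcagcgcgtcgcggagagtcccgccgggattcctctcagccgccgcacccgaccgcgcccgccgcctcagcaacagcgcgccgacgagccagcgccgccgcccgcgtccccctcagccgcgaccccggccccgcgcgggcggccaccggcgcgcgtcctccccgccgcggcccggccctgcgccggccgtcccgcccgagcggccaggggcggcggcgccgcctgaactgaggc

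The sequences differ in base composition. The window of the internal *Rbfox1* start had a GC content of 48.4% and 6 CpG dinucleotides, and that of its most upstream start had 51.2% and 2 CpG. The *Mbnl1* window had 73.6% and 33 CpG, and the *Qk* window had 84.8% and 52 CpG. Over the same window of all 32851 promoters in the table the medians were 52.4% and 6 CpG. Both *Rbfox1* windows thus lay close to the middle, and the *Mbnl1* and *Qk* windows lay toward the GC-rich end. Starts with little difference were not all GC-rich. At the *Celf2* start in that gene's strongest peak, the window had 47.2% and 5 CpG, and the peak differed by 0.19. For the most upstream *Mbnl2* start these values were 57.2%, 10 CpG and -0.18. Whether composition goes with the difference was not tested. Of the 21 curated starts of the 9 genes, 13 in 7 genes were in the promoter table.

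Over the 121 peaks, 9 were lower in *Arid1a cKO* hearts by at least 1 (7.44%), beside 10.6% of all peaks. A further 5 were higher by at least 1 (4.13%), beside 4.57% of all peaks. The median difference was -0.05, beside 0.01 over all peaks. The summed normalized reads were 24319 in control hearts and 21420 in *Arid1a cKO* hearts, a log2 ratio of -0.18, beside -0.08 for all peaks. As a set the 9 genes thus had no larger share of peaks past the limit than the whole table.

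*Rbfox1* held 5 of the 9 lower peaks. Without its 11 peaks, an alternative chosen after the values were seen, 4 of 110 peaks were lower (3.64%), 5 were higher and the median difference was -0.025. The peaks just inside the limit were 1 of *Mbnl1* at -1.15, 1 of *Qk* at 1.07 and 1 of *Rbfox2* at 1.12. Those just outside it were 1 of *Mbnl1* at -0.99, 1 of *Rbm24* at -0.92 and 1 of *Rbfox2* at 0.91.

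The level of a peak mattered for these counts. Of the 64 member peaks with a concentration over all samples of at least 5 (log2), 4 were lower, beside 6.92% of all such peaks, and 1 was higher, beside 0.966%. The 57 weaker peaks held the other 5 lower (8.77%) and 4 higher peaks (7.02%), beside 15.9% and 9.71% of all weaker peaks. At a limit of 1.5-fold, 20 of the 121 peaks were lower and 13 were higher, beside 17.3% and 12.0% of all peaks. By location, 86 peaks had their centre in an intron, with 8 lower and 1 higher and a median of -0.11. Of all intronic peaks, 12.7% were lower and 4.17% were higher, with a median of -0.03. The 29 intergenic peaks had 1 lower and 4 higher and a median of 0.28, beside 11.4% lower, 6.81% higher and a median of 0.08 for all intergenic peaks. The 4 promoter peaks, the coding exon peak and the peak in a UTR or noncoding exon were all within the limit.

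**Figure D1:**
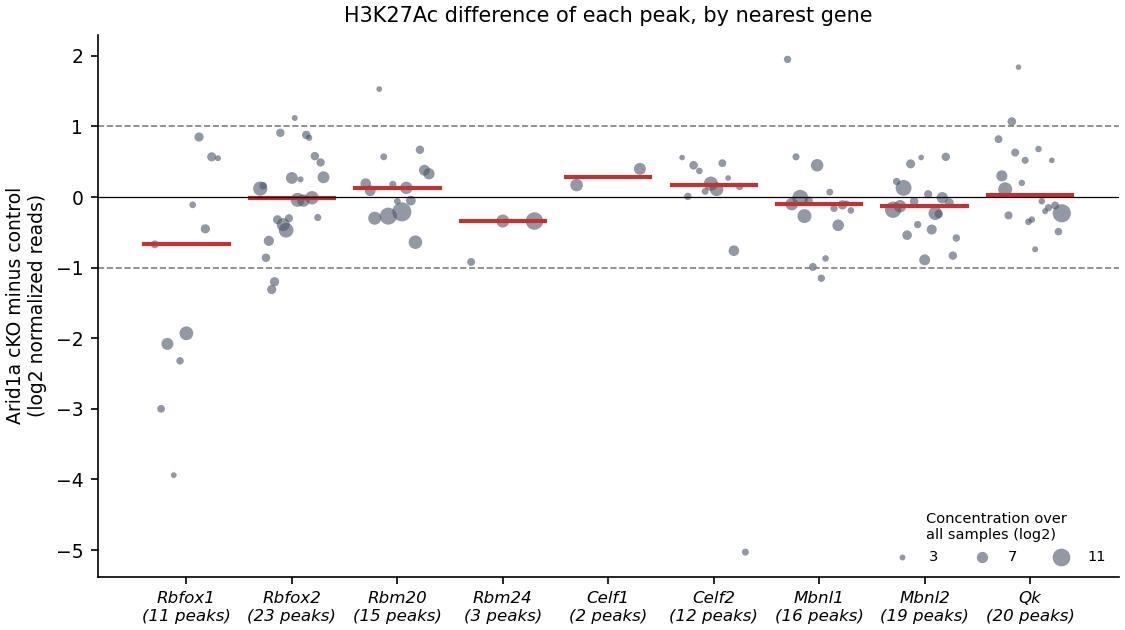
Difference in H3K27Ac (*Arid1a cKO* minus control, log2 normalized reads) of each of the 121 peaks, by nearest gene and, within a gene, in order of position. Point area grows with the concentration, red bars are medians over a gene's peaks, and dashed lines mark 1 and -1; 5 of the 11 *Rbfox1* peaks lie below -1, and the point at -5.03 is a weak *Celf2* peak.

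RBFOX1 and RBFOX2 are closely related proteins that recognise the same RNA motif. *Rbfox1* expression is largely limited to muscle, heart and brain, and RBFOX2 is found in many tissues. *Rbfox1* (chr16:5884793-7412480, plus strand) had 11 peaks, of which 5 were lower by at least 1, none was higher and the median difference was -0.67. Its summed normalized reads were 1156 in control and 438 in *Arid1a cKO* hearts, a log2 ratio of -1.40, so that 37.9% of the control level was left. It was the 1 gene of the 9 with a ratio of -1 or lower, beside 4.22% of the 8491 genes with at least 2 peaks. A ratio as low as that of *Rbfox1* was found for 165 of these genes (1.94%), and for 6 of the 748 genes with at least 10 peaks (0.802%). In the paper, *Rbfox1* is among the genes with reduced expression in *Arid1a cKO* hearts.

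The 5 lower peaks of *Rbfox1* were the 5 that lay around its internal start, from 15 kb before to 30 kb after it, a stretch set after the values were seen. The peak over this start (chr16:7068857-7072367, intron of the longer transcripts) had 284 normalized reads in control and 67.2 in *Arid1a cKO* hearts, a difference of -2.08. Among 3024 peaks of like concentration (within 0.25 log2), 0.595% differed by as much in this direction. The strongest *Rbfox1* peak (chr16:7093207-7104516), 29.0 kb downstream, had 605 and 159 normalized reads, a difference of -1.93, and 0.331% of 1814 peaks of like concentration were as low. This peak was 11310 bp wide and held 52.3% of the control reads of the gene. The *Arid1a cKO* level was 23.7% of the control level at the start peak and 26.2% at the strongest peak.

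The other 3 lower peaks of *Rbfox1* were weak and are outside the rule for named peaks, and were named after their values were seen. The peak 11.9 kb before the internal start (chr16:7057211-7058692) had 41.6 and 5.21 normalized reads, a difference of -3.00. The peak 19.4 kb after it (chr16:7088781-7089751) had 33.1 and 6.63, a difference of -2.32. The peak 6.11 kb after it (chr16:7075412-7076476) had 14.5 and 0.946, which is at least 4.84-fold lower when the *Arid1a cKO* level is set to 3 reads. Together the 5 peaks had 978 normalized reads in control and 239 in *Arid1a cKO* hearts (log2 ratio -2.03), which is 24.4% of the control level.

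The other 6 *Rbfox1* peaks lay outside this stretch and none passed the limit, but the stretch was set with these values known. Of the 6, 2 were intergenic, 350 and 630 kb after the internal start and beyond the end of the gene (0.57 and 0.55). Over all 6, the differences ranged from -0.67 to 0.85. The summed reads of the 6 were 178 in control and 199 in *Arid1a cKO* hearts, a log2 ratio of 0.16. The nearest of them upstream (chr16:7049186-7050985), 10.7 kb after the middle *Rbfox1* start, had 30.9 and 19.4 normalized reads. On the other side, the nearest lay 80.7 kb after the internal start and had 13.8 and 12.8.

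The other 2 curated *Rbfox1* starts lay in no peak. The middle start (position 7039370) was 9.82 kb from the nearest peak, and the most upstream start (position 5884793) was 201 kb from it. That nearest peak (chr16:6085736-6087483) lies within the *Rbfox1* gene but closest to the start of *1700123O21Rik*, and so was not among the 121. It had 77.2 and 30.5 normalized reads, a difference of -1.34, which is past the limit although the peak is far from the internal start.

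**Figure D2:**
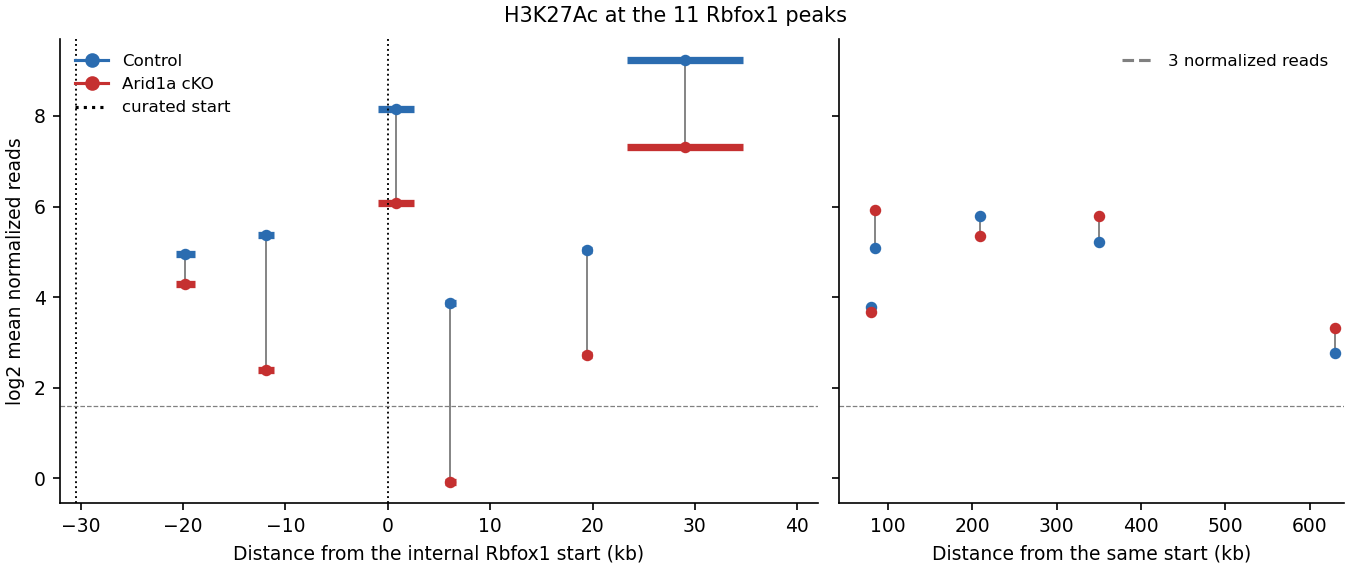
H3K27Ac level (log2 mean normalized reads) of the 11 *Rbfox1* peaks against distance from the internal start in kb, in control (blue) and *Arid1a cKO* (red) hearts; horizontal bars span the peaks, dotted lines are curated starts and the dashed line is 3 reads. The left panel holds the 5 peaks with differences from -1.93 to -3.94 and the upstream peak at -0.67, and the right panel, on a longer distance scale, holds the other 5 peaks with differences from -0.45 to 0.85.

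*Rbfox2* (chr15:77078990-77308434, minus strand) had 23 peaks, of which 2 were lower and 1 was higher by at least 1. The median difference was -0.01, and the summed reads were 3223 and 2971, a log2 ratio of -0.12. All 4 of its curated starts lay in peaks, which had differences of 0.12, -0.04 and -0.01. The peak over the pair of downstream starts (chr15:77148648-77154650) had 449 and 488 normalized reads, that over the middle start (chr15:77243350-77247919) had 425 and 413, and that over the most upstream start (chr15:77303329-77307754) had 329 and 326. The *Rbfox2* start peaks thus differed between the groups by at most 0.12 in size, beside -2.08 at the internal *Rbfox1* start.

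The strongest *Rbfox2* peak (chr15:77208880-77217199, intron) had 666 and 481 normalized reads, a difference of -0.47. The 2 lower peaks were neighbours in an intron. One (chr15:77181743-77184059) had 68.1 and 27.5 normalized reads, a difference of -1.31, and the next (chr15:77184637-77188709) had 69.6 and 30.3, a difference of -1.20. Among peaks of like concentration, 7.79% and 8.66% were as low. The higher *Rbfox2* peak was weak, with 5.46 and 11.9 normalized reads.

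*Rbm20* encodes a repressor of exons of titin and other sarcomere and calcium handling genes, and its mutations cause dilated cardiomyopathy. The gene (chr19:53660989-53867083, plus strand) had 15 peaks, none lower and 1 higher by at least 1, with a median difference of 0.13. Its summed reads were 6959 and 6069, a log2 ratio of -0.20. The median and the ratio differed in sign, and the 4 strongest *Rbm20* peaks all had negative differences.

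An intronic *Rbm20* peak of 47513 bp (chr19:53688870-53736382) was the fifth widest of the whole table and ranked 15 of 45980 by its control reads. It had 3795 normalized reads in control and 3281 in *Arid1a cKO* hearts, a difference of -0.21, and held 54.5% of the gene's control reads. The peak over the *Rbm20* start (chr19:53669570-53684457) had 1687 and 1399, a difference of -0.27. Further into the gene a peak of 13966 bp (chr19:53750126-53764091), named after its values were seen, had 428 and 274 normalized reads, the lowest difference of the gene at -0.64. The higher *Rbm20* peak had 3.78 and 10.9 normalized reads and lay 13.5 kb before the start.

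*Rbm24* encodes a muscle-enriched protein that promotes the inclusion of muscle exons and is needed for sarcomere assembly. Its short gene (chr13:46418102-46431099, plus strand) had 3 peaks, and all 3 had negative differences, from -0.92 to -0.34, with none past the limit. A single peak (chr13:46416196-46431987) spanned the whole gene. It had 2077 normalized reads in control and 1641 in *Arid1a cKO* hearts, a difference of -0.34, and held 85.8% of the gene's control reads. The peak 4.56 kb upstream of the *Rbm24* start had 309 and 244 normalized reads, which is also -0.34. Over the 3 peaks the log2 ratio of summed reads was -0.35, and 19.0% of the genes with at least 2 peaks had a ratio as low.

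**Figure D3:**
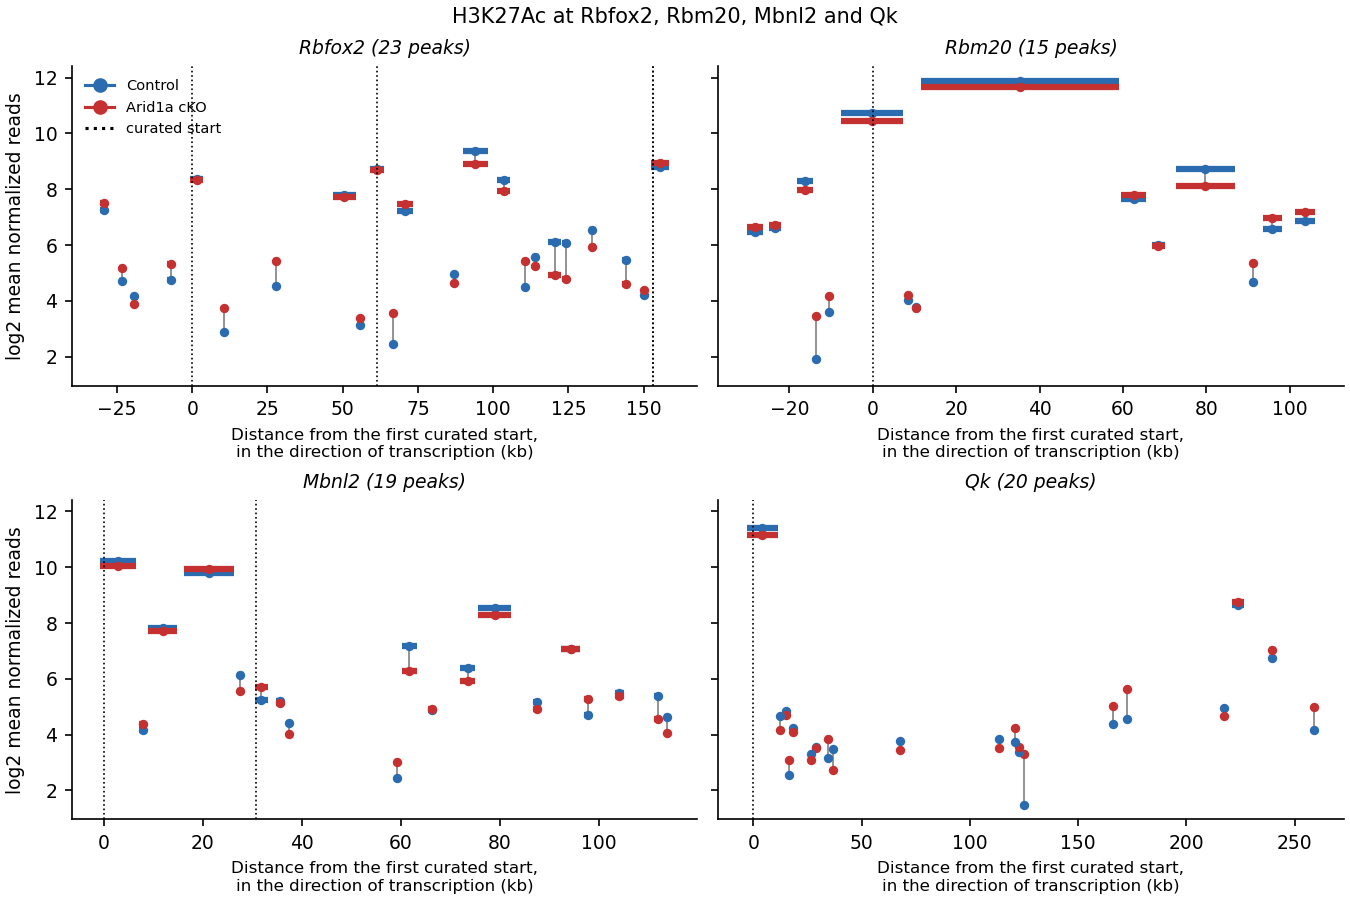
H3K27Ac level (log2 mean normalized reads) of the peaks of *Rbfox2*, *Rbm20*, *Mbnl2* and *Qk* in control (blue) and *Arid1a cKO* (red) hearts, against distance in kb from the most upstream curated start in the direction of transcription; horizontal bars span the peaks and dotted lines are curated starts. The strongest peaks of the 4 genes differ by -0.47, -0.21, -0.18 and -0.23.

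CELF1 and CELF2 bind GU-rich RNA and favour fetal splicing patterns in the heart. *Celf1* (chr2:90940259-91019497, plus strand) had 2 peaks, both with positive differences. The peak over its start (chr2:90939862-90941864) had 217 normalized reads in control and 244 in *Arid1a cKO* hearts, a difference of 0.17. The peak 24.7 kb into the gene had 148 and 195, a difference of 0.40. The log2 ratio of the *Celf1* sums was 0.27, the highest of the 9 genes.

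*Celf2* (chr2:6539694-7396341, minus strand) had 12 peaks, of which 10 had positive and 2 had negative differences, with a median of 0.17. Its summed reads were 1053 and 1091, a log2 ratio of 0.05. Its strongest peak (chr2:7079196-7084383) covered 1 of its 6 curated starts and had 425 and 484 normalized reads, a difference of 0.19. Weak peaks covered 2 more *Celf2* starts. One (chr2:6871507-6873014) had 30.5 and 41.6, and the other (chr2:6720984-6721888) had 19.3 and 19.4. The remaining 3 starts of *Celf2* lay in no peak.

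The 1 lower *Celf2* peak (chr2:7619401-7620832), named after its values were seen, was intergenic and 224 kb upstream of the nearest start of the gene. It had 30.9 normalized reads in control and 0.946 in *Arid1a cKO* hearts, which is at least 10.3-fold lower when the latter is set to 3 reads. Among 4597 peaks of like concentration, 0.370% were as low.

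MBNL1 and MBNL2 favour adult splicing patterns, and in myotonic dystrophy they are captured by expanded repeat RNA. *Mbnl1* (chr3:60472559-60629750, plus strand) had 16 peaks, 1 lower and 1 higher by at least 1, with a median difference of -0.105 and a log2 ratio of summed reads of -0.06. Its strongest peak (chr3:60498304-60506316) covered the GC-rich *Mbnl1* start shown above. It had 955 normalized reads in control and 949 in *Arid1a cKO* hearts, a difference of -0.01. The most upstream *Mbnl1* start (position 60472830), which has a window with 38.0% GC and 1 CpG, lay in no peak.

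The lower and the higher *Mbnl1* peaks were both weak. The lower (chr3:60534350-60535834, intron) had 26.4 and 11.9 normalized reads, a difference of -1.15. The higher (chr3:60309927-60311399), 162 kb upstream, had 8.11 and 31.3, a difference of 1.95, the highest of the 121 peaks.

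*Mbnl2* (chr14:120275652-120431698, plus strand) had 19 peaks, all intronic, and none passed the limit in either direction. Its differences ranged from -0.89 to 0.57 with a median of -0.13, and 13 of the 19 were negative. The peak over its most upstream start (chr14:120274938-120282080) was its strongest, with 1193 and 1053 normalized reads, a difference of -0.18. The peak over its internal start (chr14:120306147-120308769) had 37.5 and 52.0, a difference of 0.47. *Mbnl2* summed reads were 3436 and 3186, a log2 ratio of -0.11.

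*Qk* encodes Quaking, a STAR family RNA-binding protein that acts in muscle, vessel and glial cells on splicing and RNA stability. The gene (chr17:10206471-10319361, minus strand) had 20 peaks, none lower and 2 higher by at least 1, with a median difference of 0.025. A single peak over the start and the first part of *Qk* (chr17:10308146-10322431) held 77.5% of its control reads. It had 2684 normalized reads in control and 2288 in *Arid1a cKO* hearts, a difference of -0.23, and ranked 55 of 45980 by control reads. The log2 ratio of the *Qk* sums was -0.13.

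Both higher *Qk* peaks lay in the intergenic region downstream of the gene, where 10 of its 20 peaks were found. The one 173 kb from the start (chr17:10145919-10147658) had 23.8 and 49.9 normalized reads, a difference of 1.07, and was the only higher peak of the 121 with a concentration of at least 5. The one 125 kb from the start had 2.79 and 9.99, at least 3.33-fold higher when the control level is set to 3 reads. The strongest *Qk* peak in that region, 224 kb from the start, had 405 and 437, a difference of 0.11.

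**Figure D4:**
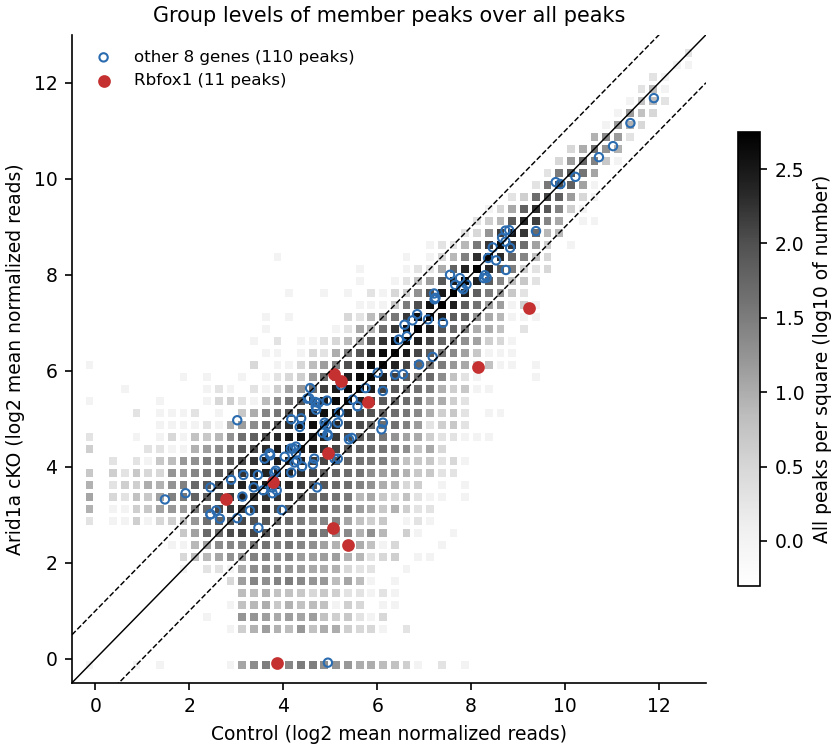
H3K27Ac level in *Arid1a cKO* hearts against that in control hearts (log2 mean normalized reads) for the 11 *Rbfox1* peaks (red) and the 110 peaks of the other 8 genes (blue), over all 45980 peaks (grey squares, darker where more peaks fall). The solid line marks equal levels and the dashed lines a difference of 1; the *Rbfox1* peaks at control levels of 9.24 and 8.15 lie below the lower dashed line, where no other member peak of that level lies.

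Levels of different genes were compared only per kb of peak. In control hearts, *Rbm24* had the highest level at 120 normalized reads per kb, followed by *Qk* (87.9), *Celf1* (65.0), *Rbm20* (63.1), *Mbnl2* (59.2), *Mbnl1* (51.6), *Celf2* (46.9), *Rbfox2* (45.7) and *Rbfox1* (41.8), beside 51.7 over all peaks. In *Arid1a cKO* hearts the level per kb was 94.4 at *Rbm24*, 80.5 at *Qk*, 78.2 at *Celf1*, 55.0 at *Rbm20*, 54.9 at *Mbnl2*, 49.5 at *Mbnl1*, 48.7 at *Celf2*, 42.1 at *Rbfox2* and 15.8 at *Rbfox1*. The order of the 9 genes was the same in both groups. With no spread between hearts, it could not be said which neighbours in this order differ. *Rbfox1* was the lowest in both groups, close to *Rbfox2* in control hearts and well under it in *Arid1a cKO* hearts.

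**Figure D5:**
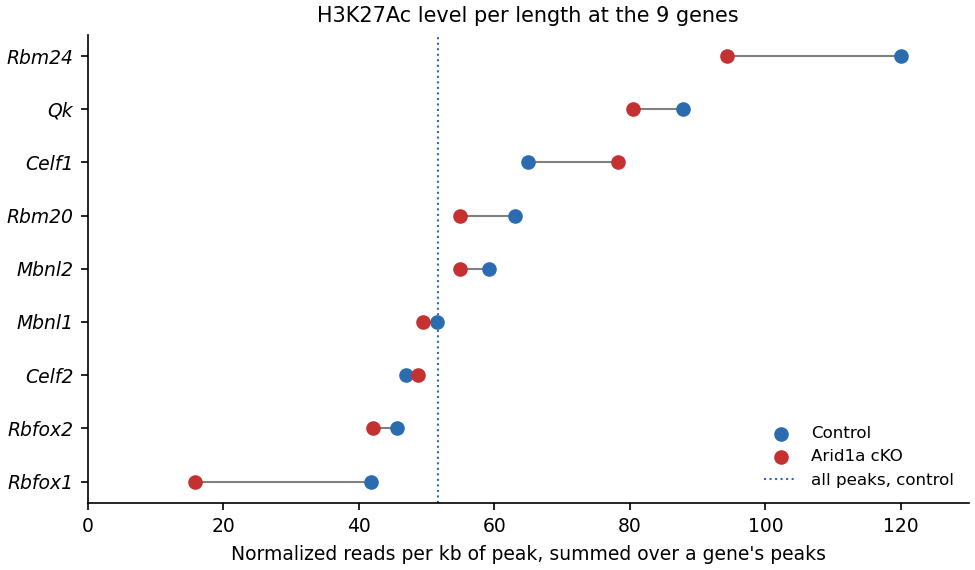
Normalized reads per kb of peak, summed over the peaks of each gene, in control (blue) and *Arid1a cKO* (red) hearts; the dotted line is the control level over all peaks (51.7). *Rbfox1* goes from 41.8 to 15.8, and the other 8 genes keep 78.6% or more of their control level.

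Of the 21 curated starts of the 9 genes, 15 lay inside a peak and 6 did not. The difference at the peak over the start was -2.08 at the internal start of *Rbfox1* and between -0.34 and 0.47 at all other covered starts. By rank of summed reads among genes with at least 2 peaks, the other 8 genes ran from *Rbm24*, with 19.0% of genes as low, to *Celf1*, with 85.4%.

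Matches to 4 motifs were searched on both strands in the central 500 bases of each peak. These were the MEF2 core, the ESRR motif TCAAGGTCA, the ZEB E-box CAGGTG and the TEAD core CATTCC, which share no full match with one another. MEF2 matches were found in 5 of the 121 peaks (4.13%), beside 2.58% of all peaks, and ESRR matches in 3 (2.48%), beside 1.68%. ZEB matches were found in 25 (20.7%), beside 28.0%, and TEAD matches in 30 (24.8%), beside 26.4%. In the central 1000 bases the MEF2 share of the members was no higher than that of all peaks, with a ratio of 0.983 in place of 1.60.

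Over whole peaks, *Rbfox1* had 25 TEAD matches in 9 of its 11 peaks (0.903 per kb, beside 0.612 over all peaks) and 19 ZEB matches in 7 (0.687 per kb, beside 0.776). It had 1 MEF2 match and 1 ESRR match (each 0.0361 per kb, beside 0.0334 and 0.0339), both in the 5 lower peaks. The MEF2 match lay in the peak 11.9 kb before the internal start, and the ESRR match in the strongest peak. The paper names *Rbfox1* among its predicted targets of MEF2 and ESRR factors. Of the 2 lower *Rbfox2* peaks, the one at -1.20 held a MEF2 match. These 3 matches are shown with 10 bases on each side because they lie in lower peaks, on the strand of the match, with the motif in capitals. Their positions are chr16:7057842-7057871 (plus), chr16:7103883-7103911 (minus) and chr15:77188057-77188086 (plus). Only the *Rbfox1* MEF2 match lay in the central 500 bases of its peak. The *Rbfox1* ESRR match lay near the downstream end of its wide peak. The 10 bases before it were the same as those before an ESRR match in an *Mbnl2* peak with a difference of -0.24. Whether these matches lie in repeats was not tested.
Rbfox1 MEF2 match: tagaaacgatCTAAAAATAGattgtaatgt
Rbfox1 ESRR match: gatcagaagtTCAAGGTCAttcgattgaa
Rbfox2 MEF2 match: agacattttaCTATATTTAGaagacaattg

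MEF2 matches were not limited to lower peaks. The *Rbm24* peaks held 4, with differences of -0.34, and a *Qk* peak with a difference of 1.07 held 1. Their share was still higher among lower peaks. In the central 500 bases, a MEF2 match lay in 5.56% of all lower peaks and in 2.23% of all other peaks. A higher share among lower peaks was not particular to MEF2. In the same window, ESRR matches lay in 3.05% of all lower peaks and 1.51% of all other peaks, and ZEB matches in 31.5% and 27.6%. TEAD matches lay in 29.4% of all lower peaks, beside 26.4% of all peaks. Among the members a MEF2 match lay in 1 of 9 lower peaks and in 4 of the other 112. These contrasts were not tested. In the 250 bases upstream of the 13 starts with a sequence, there was no MEF2 or ESRR match, 1 ZEB match (*Rbm24*) and 1 TEAD match (a *Celf2* start in no peak). Over all promoters of the table these shares were 0.508% for MEF2, 0.387% for ESRR, 17.2% for ZEB and 12.6% for TEAD. A match here is a match of letters, and a window without one lacks only these letters.

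Among 40 other splicing factors, 34 had peaks. Their 106 peaks included 10 that were lower (9.43%) and 2 that were higher (1.89%), beside 10.6% and 4.57% of all peaks. Their median difference was 0.01, the same as over all peaks. The lowest log2 ratios of summed reads were those of *Celf5* (-2.11, 1 peak), *Rbfox3* (-0.84, 3 peaks), *Rbpms2* (-0.30), *Rbm25* (-0.28) and *Srsf10* (-0.22). *Rbfox3*, the neuronal relative of *Rbfox1*, had 86.0 normalized reads in control and 48.0 in *Arid1a cKO* hearts. The highest ratios were those of the epithelial factor *Esrp2* (1.11, 1 peak), *Mbnl3* (0.46) and *Rbm4* (0.35). The ratio of the sums over the list was within 0.01 of 0, with 99.7% of the control level in *Arid1a cKO* hearts.

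Genes whose transcripts these proteins splice in muscle were described in the same way. All 25 had peaks, 206 in total, of which 19 were lower (9.22%) and 6 were higher (2.91%). Both shares were under those of all peaks, 10.6% and 4.57%. The median difference was -0.14, beside 0.01 over all peaks. The log2 ratio of the sums was -0.18, equal to that of the 9 regulators, beside -0.08 over all peaks. The lowest ratios were those of *Clcn1*, the muscle chloride channel (-2.99, 1 weak peak), *Tnnt2*, cardiac troponin T (-0.46), *Dtna* (-0.45), *Svil* (-0.39) and *Pdlim5* (-0.39). The highest were those of *Tpm2* (0.36), *Bin1* (0.29) and *Actn1* (0.04).

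Markers of the cell types of the ventricle were read in the same table. The log2 ratio of summed reads was -0.11 for 5 cardiomyocyte genes, of which 3 were negative (*Tnnt2* -0.46, *Actn2* -0.35 and *Ryr2* -0.08) and 2 were positive (*Myh6* and *Tnni3*). The *Tnni3* ratio of 0.28 rests on 1 weak peak, with 44.0 normalized reads in control and 53.4 in *Arid1a cKO* hearts. *Tnnt2* and *Ryr2* were also among the splice targets. The ratio was 0.02 for 5 endothelial genes, from -0.03 to 0.06. It was 0.42 for 5 fibroblast genes (2906 to 3877 summed reads), all 5 positive, from 0.25 to 0.58. It was 0.53 for the 4 of 5 macrophage genes with a peak (112 to 162 reads), all 4 positive, while *Adgre1* had no peak. It was 0.55 for 5 smooth muscle and pericyte genes (730 to 1067 reads), 2 of which were positive. Most of this rise was at *Acta2* (423 to 753 reads, 0.83). The paper proposes *Acta2* as a possible direct target of raised YAP/TEAD activity in these hearts, and as a gene that falls as the heart matures. Which cells the *Acta2* reads came from was not tested. *Tagln* was also positive (0.72), while *Myh11* (-0.12), *Cnn1* (-0.44) and *Rgs5* (-0.02) were negative, and the median of the 5 ratios was -0.02. The cardiomyocyte marker *Myh6* had 3591 normalized reads in control and 3929 in *Arid1a cKO* hearts, a log2 ratio of 0.13. *Myh6* encodes αMHC, whose promoter also drives the Cre transgene that only the *Arid1a cKO* hearts carried. Whether reads from the transgene fell in this peak was not tested. In the paper, *Myh6* and *Tnni3* RNA were both lower in *Arid1a cKO* hearts. The part of the marker differences in the results above was not tested. The 2 peaks of *Arid1a* itself had a log2 ratio of 0.05, which does not check the deletion, since this mark does not read the deleted part of the gene.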

How the data were processed

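H3K27Ac ChIP and input libraries were made from P7 ventricles of 2 control and 2 *Arid1a cKO* hearts, grouped by genotype and antibody as in the labels. Upstream, the authors aligned the libraries to mm10 (BWA 0.7.17-r1188), used HOMER to find peaks over merged inputs, required a peak in at least 2 samples, and ran DiffBind 2.12.0 with DESeq2 1.24.0. Versions are from the submitters' processing notes, which give HOMER 4.11. The deposited table gives a concentration for each peak, which is the log2 of the mean of normalized reads, once for all H3K27Ac samples and once per group. Library scaling and treatment of the input are not given in the sources used here. Columns of single samples number 0, and depth is therefore unknown. Its columns of the authors' fold change, p-value and FDR for *Arid1a cKO* against control were not used.

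From these values, the difference of the group levels was computed for each peak, and normalized reads (2 to the power of the level) were summed per gene. No test was made. The centre of each peak was given to the nearest start of 45756 curated RefSeq transcripts (GRCm38.p6). Of 45987 peaks, 7 on unplaced sequences were left out. Promoters reached from 1000 bp before to 100 bp after a start. Levels at or under 3 reads were treated as a floor. Named peaks were the strongest of each gene, those within 1000 bp of a start, and those past the limit of 1 (log2) with a concentration of at least 5; any other peak was named after its values were seen. Of each gene list, at most the 5 lowest and 3 highest genes were named. The members and lists were chosen with earlier results of these data known. Alternatives changed the limit, the filter on weak peaks, the centring, the floor, the rule from peak to gene and the motif window. The steps were tested on simulated data. Python 3.11.15, numpy 2.4.6, pandas 2.3.3, pysam 0.24.0 and matplotlib 3.10.9 were used.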

Additional observations from a re-analysis of the deposited data

How the results depend on the processing

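No paired analysis was possible because the deposited table pools the hearts of each group and its columns carry no replicate numbers. Leaving out each heart in turn was not possible for the same reason. The 9 lower of 121 peaks became 20 at a limit of 1.5-fold, beside 17.3% of all peaks. They became 4 of 64 with a concentration of at least 5, beside 6.92% of all such peaks. Without *Rbfox1*, chosen after seeing the data, they became 4 of 110. They became 6 at a limit of 1.5 (log2), 11 of 115 inside the gene, 10 when centred on all peaks and 8 of 102 within 100 kb of a start. The 5 higher peaks became 13 at 1.5-fold, beside 12.0% of all peaks, and 3 at a limit of 1.5 (log2). They became 1 of 64 with a concentration of at least 5, beside 0.966% of all such peaks. They became 3 of 115 inside the gene, 2 of 90 with starts of any RefSeq transcript and 2 of 102 within 100 kb of a start. For the other alternatives no share over all peaks is given. The ratio of the MEF2 share in members to that in all peaks was 1.60 in the central 500 bases and 0.983 in the central 1000. The causes were not tested. Of 108 values per gene under these alternatives, 97 stayed within 0.1 and 11 moved. The 97 include 18 under centring and 18 under the floor, which could hardly move. Centring shifts all values alike by less than 0.1, and the floor touched 1 control and 2 *Arid1a cKO* levels of the members. All 11 moves came from the other alternatives. The log2 ratio of *Rbfox1* was -1.40, and -1.56 inside the gene and -1.67 within 100 kb of a start. The median of *Rbfox1* went from -0.67 to -0.45 with a concentration of at least 5, -1.30 with starts of any RefSeq transcript, -1.635 inside the gene and -2.005 within 100 kb. The median of *Qk* went from 0.025 to 0.205 with a concentration of at least 5 and to -0.175 under each of the other 3 of these alternatives, and that of *Rbm20* from 0.13 to -0.11 inside the gene. Group means without depth or spread limit every statement to the size of a difference.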
